A study of Caenorhabditis elegans with 6 samples.

Results

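The transcriptome described here is that of daf-16(0) dauer larvae of Caenorhabditis elegans, taken by itself: 3 libraries of the 6 in the series, chosen by their genotype label, with all 46904 listed features of every biotype. The animals carried daf-16(mgDf50), a null allele of the only FOXO transcription factor gene of the worm, together with daf-7(e1372), a temperature-sensitive allele of the TGF-beta ligand DAF-7 that makes larvae enter dauer. The control strain of the series carried daf-7(e1372) alone, so the daf-7 allele was common to all libraries, and its 3 libraries were used only to check the labels. Embryos were incubated at 24 °C for 52 h, and RNA was taken from whole animals. Not every double mutant becomes a dauer at this temperature, so the larvae used here were handpicked. The labels and the protocol give the same genotype but different strain names for daf-16(0). The protocol states fewer biological replicates than the 3 libraries deposited, so nothing shows how independent the 3 are. Replicate 1 is absent from the authors' deposited comparison of genotypes, and the methods describe a search for outlier samples by read quality and principal components. The split of replicate 1 from replicates 2 and 3 therefore may already rest on these values, and every difference below is a description, with no test.

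Dauer is an alternative larval stage that C. elegans enters in place of the L3 stage when conditions are poor. A dauer larva does not feed, its pharynx is sealed, its germ line is arrested before gametes form, and it wears a special cuticle with alae, built from a set of collagens that other stages use little. Insulin signalling holds DAF-16 out of the nucleus in growing animals, and in dauer larvae nuclear DAF-16 turns on genes of stress resistance and fat-based metabolism. The cuticle is remade at each molt from different members of the col family, so the collagen transcripts of a population reflect the stage whose cuticle is being built.

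daf-16 itself (chrI:10750343-10776700, WBcel235) was measured first, as a check of the labels. On a scale common to all 6 libraries it was at 39.4, 61.4 and 42.0 CPM (counts of a gene in a library scaled to 1000000) in daf-16(0) replicates 1, 2 and 3, from 617, 578 and 563 expected counts. The controls were at 380, 341 and 190 CPM. The groups did not overlap, as the labels require, but the transcript was not absent from the mutant libraries. All values from here on are from the daf-16(0) libraries alone.

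The libraries held 14933461, 8690101 and 13317866 expected counts. Protein-coding genes took 98.8%, 99.3% and 98.0% of them. A level here is CPM scaled by TMM factors (1.02, 1.03 and 0.955), so it can be compared between libraries for a gene. A level per length, in counts per kb of exon rescaled to sum to 1000000 in each library, is given beside the ranking by CPM, since ranks by CPM favour long genes. Counts of at least 1 were found for 15213, 15602 and 16210 features. No miRNA, tRNA, snRNA or piRNA gene reached the mean of 1 CPM set for comparison, which 14036 genes did, 13675 of them protein-coding. A level of 0 allows up to 3 counts, which is 0.197, 0.336 and 0.236 CPM in replicates 1, 2 and 3, for counting error only.

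By CPM, the mutant dauer transcriptome was led by translation, intestinal proteases and yolk. eef-1A.1, the elongation factor that brings aminoacyl-tRNA to the ribosome, was at 12248, 12313 and 10969 CPM in replicates 1, 2 and 3 and had the highest mean (11844 ± 758, SD, n = 3). asp-1, an aspartyl protease of the intestine, was at 12379, 7247 and 9123 CPM. eef-2, which moves the ribosome along the message, was at 7147, 5748 and 6674 CPM, and ant-1.1, the mitochondrial ATP/ADP carrier, at 7234, 5750 and 4792 CPM. The first 2 places went to eef-1A.1 and asp-1 in replicates 1 and 2, while in replicate 3 asp-1 stood behind rrn-3.1 and vit-6.

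Vitellogenins, the yolk proteins made in the intestine of adult hermaphrodites, held 3 of the 25 highest places. vit-6 was at 6312, 4162 and 9706 CPM, vit-2 at 6387, 4064 and 8821 CPM, and vit-5 at 4663, 2465 and 3657 CPM. The 6 vit genes summed to 23268, 14113 and 26406 CPM, and replicate 2 was lowest for each of the members named. vit-3, vit-4 and vit-5 share long stretches of near-identical sequence, so the share of reads given to each is uncertain. No vit gene was 4-fold apart between any pair of libraries. The part of animals of another stage in these yolk levels was not tested.

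The other leading genes were of energy metabolism, muscle and defence. atp-2 and atp-1, subunits of the mitochondrial ATP synthase, were among the steadiest, at 3160, 3306 and 3165 CPM for atp-2 and 2981, 3086 and 3113 CPM for atp-1. far-2, a secreted fatty acid and retinol binding protein, was at 3373, 3355 and 3112 CPM. ctc-1, a mitochondrially encoded subunit of cytochrome c oxidase, was at 2328, 3996 and 3115 CPM. clec-63, a C-type lectin, was at 3443, 4790 and 5852 CPM and asp-6, another aspartyl protease, at 5305, 3079 and 3376 CPM. unc-54, the major myosin heavy chain of body wall muscle, was at 2417, 2974 and 7714 CPM, and irg-7, an infection response gene, at 2274, 1899 and 5561 CPM. Both had their high value in replicate 3 alone.

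Cytosolic ribosomal protein genes filled 9 of the 25 highest places, from rpl-3 (5700, 4903 and 4193 CPM), rpl-4 and rla-0 through rps-0, rps-1, rpl-7, rpl-2 and rps-4 to rpl-10 (3172, 2957 and 2652 CPM). The 81 listed members took 14.99%, 13.7% and 11.2% of all counts, the largest share of the families counted by symbol. Of 80 members compared, 74 were highest in replicate 1 and 76 lowest in replicate 3, where over all genes compared 35.1% were highest in replicate 1 and 34.2% lowest in replicate 3. The steps were small, with a median log2 difference of 0.25 between replicate 1 and the mean of replicates 2 and 3, and no member was 4-fold apart. They held 48, 43 and 33 of the 100 highest places.

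**Figure D1:**
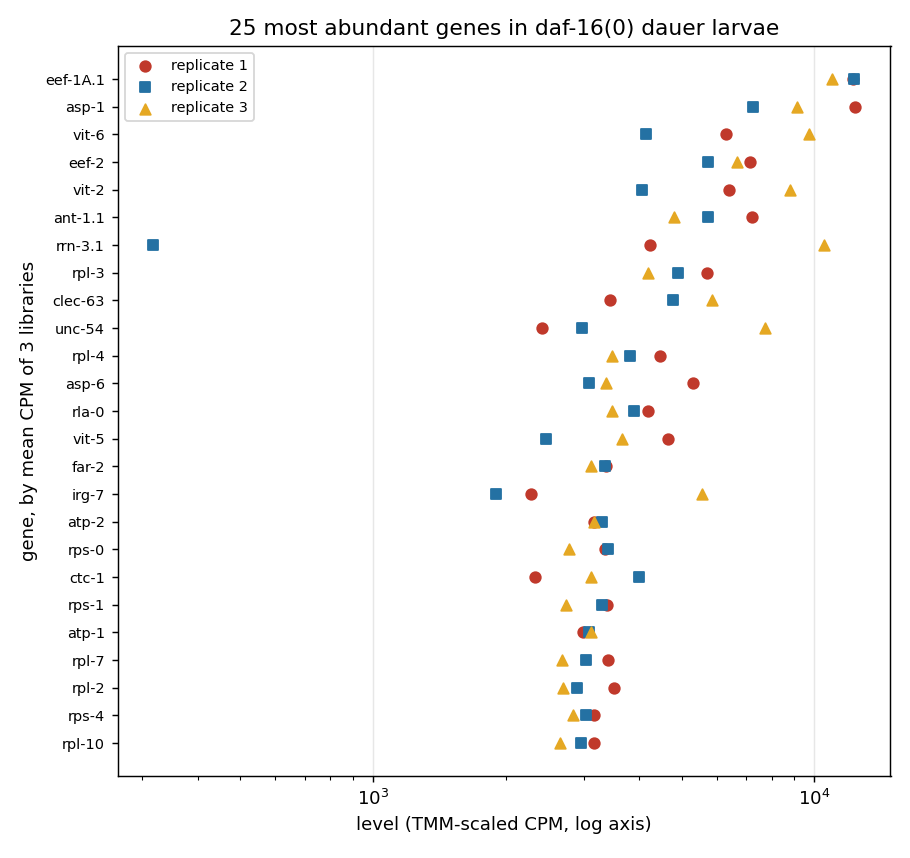
Level (TMM-scaled CPM, log axis) of the 25 genes with the highest mean over the 3 daf-16(0) libraries, 1 point per library. The points of 20 genes lie within 2-fold of each other, while rrn-3.1 runs from 317 CPM in replicate 2 to 10507 CPM in replicate 3.

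Exon length changed which genes led. By counts per kb the order began asp-1 (9586), eef-1A.1 (9176), far-2 (6384) and ant-1.1 (5491), and 20 of the 25 highest genes were cytosolic ribosomal protein genes. Only 13 of the 25 genes named by CPM were among the 25 by counts per kb. vit-6, the third by CPM, was at place 120 by counts per kb, and unc-54 was at place 199. Ribosomal protein genes made up 28.5%, 25.6% and 23.3% of the summed level per length in replicates 1, 2 and 3.

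Among the other families, the 159 listed col collagens summed to 30423, 41178 and 41077 CPM, translation factors of the eef and eif families to 29196, 27479 and 26705 CPM, and aspartyl proteases of the asp family to 25415, 16845 and 19211 CPM. Heat shock genes named hsp summed to 9759, 11887 and 10396 CPM, C-type lectins to 8175, 9354 and 10986 CPM, and the protein-coding genes of the mitochondrial genome to 7450, 13005 and 9714 CPM. The highest collagens by mean level were col-3 (781, 1886 and 2037 CPM), col-10 (859, 1655 and 2149 CPM), col-117 (731, 1356 and 2000 CPM) and col-166 (875, 1416 and 1628 CPM). All of these were lowest in replicate 1 and within 2-fold in replicates 2 and 3.

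The libraries agreed on the ranking of genes more than on their exact levels. Of the 25 highest genes of each library, 13 were shared by all 3, as were 69 of the 100 highest and 780 of the 1000 highest. Across the 14036 genes, which are not independent replicates, Spearman's rho was 0.907 between replicates 1 and 2, 0.874 between replicates 1 and 3 and 0.923 between replicates 2 and 3. The median absolute log2 difference was 0.54, 0.63 and 0.50 for the same pairs. Genes at least 4-fold apart made up 10.96%, 14.7% and 9.83% of those compared. Replicates 2 and 3 were thus the closest pair on each of these measures, but not by much.

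For replicate 1 against the other libraries, a gene was counted when its level was at least 4-fold above the higher, or at least 4-fold below the lower, of replicates 2 and 3, with levels under 3 counts raised to that floor. The fold given is always against the nearer of replicates 2 and 3. Replicate 1 was lower by this rule for 631 genes (4.5% of 14036) and higher for 241 (1.72%). With no filter on low values 684 genes were lower and 453 higher, so the excess of lower genes depended in part on the filter. A mean over 3 libraries more readily passes a gene absent from 1 library than a gene found in 1 alone. Against replicate 2 alone the counts were 925 lower and 613 higher, and against replicate 3 alone 981 and 1087. Most were rare transcripts: the median of their mean levels was 2.91 CPM for the lower genes and 2.20 CPM for the higher ones, against 16.92 CPM over all genes compared. Of the 631 lower genes, 267 had no count at all in replicate 1. Genes with at least 100 CPM in some library numbered 29 among the lower ones and 5 among the higher ones.

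The clearest difference was in the transcripts of dauer cuticle collagens. The study's list of 24 dauer-enriched collagens was defined on developmental data from other work, not on these libraries. Of the 23 members compared, 22 were at least 4-fold lower in replicate 1, where 4.5% of all genes were. Their summed level was 92.1 CPM in replicate 1, 4116 CPM in replicate 2 and 5596 CPM in replicate 3. The median log2 difference of replicate 1 from the mean of the others was -6.23, against -0.05 over all genes compared. Adult-enriched collagens and oocyte, eggshell and germline genes, given below, were for the most part highest in the same library, and the part of animals of another stage in these levels was not tested.

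col-40 (chrII:1104945-1106925), the highest of them by mean CPM, was at 7.29, 483 and 903 CPM in replicates 1, 2 and 3, a fold of 66.3. col-2 (chrIV:10084454-10085438) was at 8.47, 476 and 813 CPM and 56.2-fold lower in replicate 1. col-36 (chrII:7167513-7168662) was at 3.68, 440 and 326 CPM and 88.7-fold lower. col-37 was at 6.70, 275 and 477 CPM. Replicate 1 stood apart for each of them, while replicates 2 and 3 lay within 2-fold of each other.

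The 12 genes named for the largest folds in this direction held 8 dauer-enriched collagens. col-35 (chrI:7385907-7386935) had 4 counts in replicate 1, or 0.263 CPM, against 59.9 and 146 CPM, a fold of 228. col-84 (chrII:11868535-11869688) was at 1.31, 260 and 134 CPM and 102-fold lower. It lies opposite npp-3, which had 2199, 621 and 1671 counts, and the library kit does not mark strand, so reads of the pair could be mixed. col-102 (1.51, 209 and 135 CPM), col-185 (1.84, 98.2 and 181 CPM) and col-43 (5.12, 453 and 244 CPM) had the same form. The member compared that did not pass, col-151, was at 0, 0.224 and 3.70 CPM, and col-83, at 0, 0.672 and 0 CPM, was too low to compare.

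The other 4 of the 12 were not collagens. pqn-74 (chrIV:13329508-13331406), of a glutamine- and asparagine-rich family, was at 0.788, 104.7 and 118.6 CPM, a fold of 133. grl-20 (1.77, 108 and 131 CPM) and grl-25 (3.68, 152 and 349 CPM) encode ground-like proteins related to hedgehog. C13A2.12 was at 2.50, 144 and 112 CPM. Among the 29 lower genes of at least 100 CPM, 15 were dauer-enriched collagens and 3 were other col genes.

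Several of the remaining 29, picked after their values were seen, were not collagens. cut-1 (chrII:11269124-11271599), a cuticlin of the dauer alae, was at 3.55, 238 and 135 CPM, 38.1-fold lower in replicate 1. C17F4.7 was the highest of the 29 by CPM in every library, at 265, 1783 and 1955 CPM, and so remained well expressed in replicate 1. hsp-70, an inducible HSP70 chaperone, was at 22.6, 221 and 133 CPM. pgp-6, a P-glycoprotein transporter, was at 15.9, 155 and 282 CPM.

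**Figure D2:**
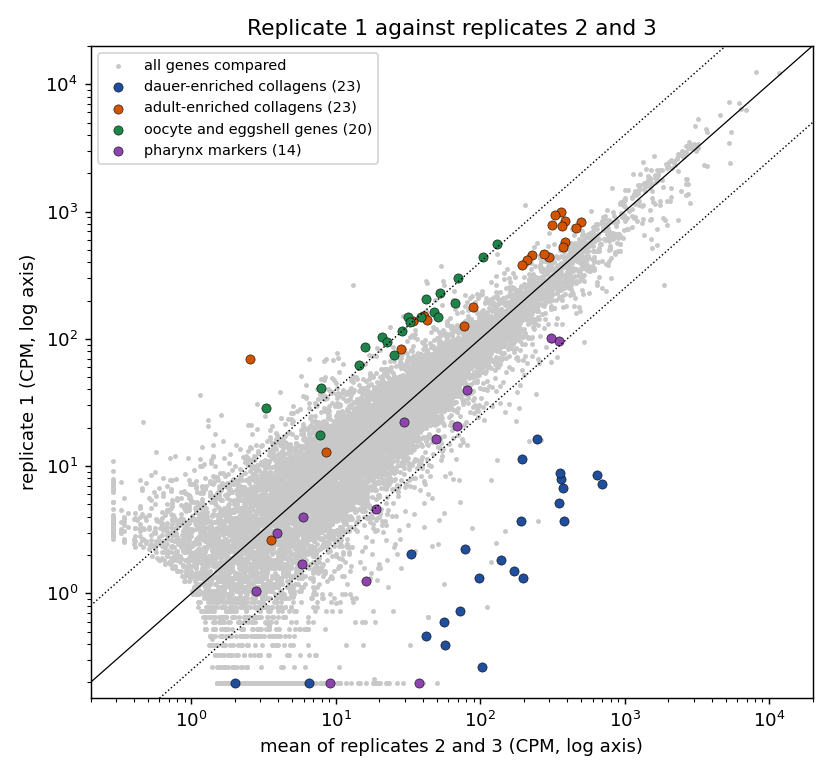
Level in replicate 1 against the mean of replicates 2 and 3 (CPM, log axes) for the 14036 genes compared, with 4 gene lists in colour, the solid line at equal levels and the dotted lines at 4-fold. The dauer-enriched collagens lie far under the lower dotted line, with 92.1 CPM in all in replicate 1, and the oocyte and eggshell genes lie above the solid line, 20 of 20.

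Families related to the cuticle and to the lining of the pharynx showed the same direction in part of their members. Over all genes compared, 4.5% were at least 4-fold lower in replicate 1 and 1.72% higher. Of 138 col genes compared, 28 were lower and 2 higher. The 28 include the 22 dauer-enriched collagens given above, so this count is for the most part the same result again. Of 45 hedgehog-related genes of the grd, grl, wrt and hog families, 14 were lower and 1 higher. grl-16, the highest of them, was not past the fold at 358, 586 and 536 CPM, nor were grd-5 (105, 168 and 177 CPM) and grl-7 (189, 142 and 99.3 CPM). Of 69 abu, pqn and phat genes compared, many of which line the pharynx, 17 were lower and 0 higher. Within these the abu genes stood out, with 8 of 12 lower, a prefix singled out after its values were seen. abu-14 was at 11.4, 218 and 158 CPM, abu-11 at 2.43, 57.2 and 44.2 CPM and abu-8 at 0, 42.8 and 32.2 CPM. The abu genes resemble each other in sequence, so counts of single members are uncertain, but all 3 were high in replicates 2 and 3.

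The 23 adult-enriched collagens, from the same published stage data, were all compared, and 22 of them were highest in replicate 1, where 35.1% of all genes were. 1 of the 23 was at least 4-fold higher there, where 1.72% of all genes were. Their summed level was 10092 CPM in replicate 1, 6101 CPM in replicate 2 and 3933 CPM in replicate 3, and 19 of 23 were lowest in replicate 3, against 34.2% of all genes. Most members thus had the same order of libraries, with steps mostly under 4-fold.

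col-19, an adult collagen used as a marker of adult hypodermis, was at 462, 363 and 186 CPM. The 4 highest of the set were col-124 (833, 619 and 383 CPM), col-129 (995, 387 and 343 CPM), col-140 (744, 606 and 310 CPM) and col-122 (848, 432 and 342 CPM). col-95, the only member past 4-fold, was at 69.9, 2.13 and 2.99 CPM. It had 1064, 19 and 38 expected counts, and col-96, a nearby collagen gene on the same chromosome, had 197, 55 and 140. All of these were whole numbers, so they give no sign that reads were divided between col-95 and col-96. The sum of the pair was 82.8, 8.29 and 14.0 CPM. The summed level of the adult-enriched set over that of the dauer-enriched set was 110 in replicate 1, 1.48 in replicate 2 and 0.703 in replicate 3.

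**Figure D3:**
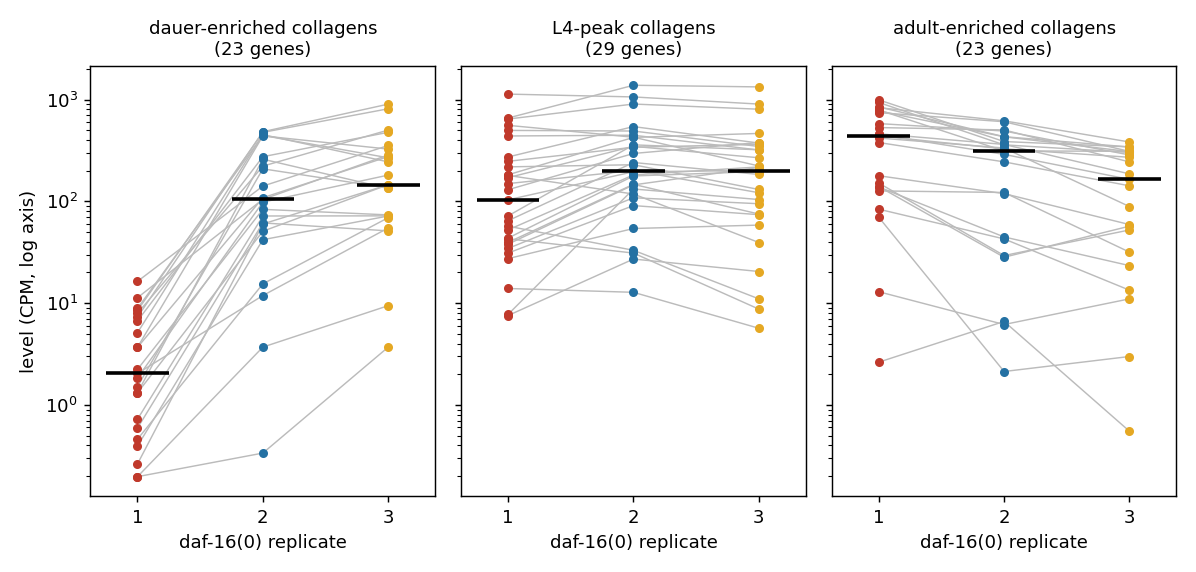
Level (CPM, log axis) of the dauer-enriched, L4-peak and adult-enriched collagens compared in each daf-16(0) library, with points for genes, grey lines joining a gene across libraries and black bars for medians; replicates have no order. Dauer-enriched collagens are low in replicate 1, with 22 of 23 past 4-fold, and adult-enriched collagens are highest there for 22 of 23 genes.

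L4-peak collagens, which are highest in the stage before adulthood, lay between these sets. Their sums were 6119, 9151 and 7858 CPM. Of 29 members, 19 were lowest in replicate 1, where 36.8% of all genes were, and the median log2 difference from the mean of the others was -0.94. At least 4-fold lower there were 3 of 29, where 4.5% of all genes were: col-180 (72.0, 359 and 321 CPM), col-157 (43.6, 178 and 196 CPM) and col-88 (7.75, 132 and 104 CPM). The most abundant members, col-125 (659, 1383 and 1333 CPM), col-73 (1132, 1062 and 903 CPM), col-17 (644, 904 and 805 CPM) and col-71 (498, 491 and 346 CPM), did not pass. Collagens of the annular furrows, body shape and struts summed to 7574, 6951 and 5721 CPM. dpy-13 (1075, 1097 and 933 CPM), dpy-5 (882, 1137 and 879 CPM) and dpy-4 (910, 965 and 941 CPM) were nearly level, while sqt-3 was at 1025, 781 and 740 CPM. In replicate 1, 1 of 19, bli-1, was at least 4-fold higher, where 1.72% of all genes were. Replicate 2 was at least 4-fold above replicate 3 for 4 of 19, where 6.28% of all genes were: bli-1, bli-2 (266, 98.4 and 14.4 CPM), dpy-14 (16.6, 7.73 and 0.944 CPM) and dpy-17 (17.0, 5.71 and 1.34 CPM).

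Only 5 genes of at least 100 CPM were 4-fold or more higher in replicate 1. ilys-3 (chrIV:2464456-2465401), an invertebrate-type lysozyme, was at 267, 22.5 and 3.78 CPM, a fold of 11.9. asp-8 (chrV:3024520-3027931), an aspartyl protease, was at 286, 54.9 and 55.1 CPM, a fold of 5.19. F42A10.7 was at 275, 57.7 and 27.3 CPM. sip-1 (chrIII:10506106-10506801), a small heat shock protein of oocytes and embryos, was at 283, 67.7 and 16.5 CPM. bli-1 (chrII:10708765-10712156), a collagen of the struts of the adult cuticle, was at 374, 90.7 and 16.2 CPM. It overlaps dph-2 on the opposite strand, which had 371, 137 and 200 counts. For ilys-3, sip-1 and bli-1, replicate 2 was also more than 4-fold above replicate 3, while asp-8 was level in the pair.

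Genes of oocytes and the eggshell, which are normally active in the adult germ line, had a fixed order across the libraries. All 20 members were compared, and all 20 were highest in replicate 1 and lowest in replicate 3, against 35.1% and 34.2% of all genes compared. Their summed level was 3285, 1351 and 281 CPM. Replicate 1 was at least 4-fold above both others for 2 of them, where 1.72% of all genes were: egg-2 (41.1, 9.52 and 6.21 CPM) and nos-2 (28.4, 5.27 and 1.302 CPM). Replicate 2 was at least 4-fold above replicate 3 for 16 of 20, where 6.28% of all genes were. The libraries thus formed 3 levels, and not a division of replicate 1 from the rest.

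cbd-1, a chitin-binding protein of the eggshell, was at 551, 207 and 53.4 CPM in replicates 1, 2 and 3. The eggshell proteoglycans cpg-2 and cpg-1 were at 441, 176 and 34.5 CPM and at 302, 119.1 and 21.9 CPM. rme-2, the receptor by which oocytes take up yolk, was at 228, 88.7 and 16.1 CPM. The defining oocyte markers oma-1 (94.5, 39.3 and 6.06 CPM) and oma-2 (103, 33.8 and 8.02 CPM), which act in oocyte maturation, had the same order. In these whole-animal libraries more cells of a type and more RNA per cell cannot be told apart.

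Major sperm protein genes, which encode the cytoskeletal protein of nematode sperm, had another pattern. Their 35 listed copies summed to 669, 714 and 138 CPM, so that replicates 1 and 2 were close and replicate 3 was low. Of 27 compared, 27 were lowest in replicate 3 and 22 were at least 4-fold above it in replicate 2, where 34.2% and 6.28% of all genes were, while 0 were past the fold in replicate 1. msp-19 (44.4, 42.6 and 10.0 CPM), msp-81 (38.4, 42.0 and 11.5 CPM), msp-51 (44.0, 41.1 and 3.65 CPM) and msp-36 (36.4, 40.0 and 7.79 CPM) had the highest means. The copies are near-identical, and the division of reads among them is uncertain. Other sperm genes summed to 241, 269 and 87.0 CPM, with gsp-3, a sperm phosphatase, at 27.9, 29.9 and 3.78 CPM. Of 22 compared, 16 were lowest in replicate 3 and 8 were at least 4-fold above it in replicate 2. The other way went 1 of 22, ssp-9 (22.7, 0 and 9.75 CPM), where 3.56% of all genes did. At least 4-fold lower in replicate 1 were 2 of 22, where 4.5% of all genes were: ssp-19 (0, 3.47 and 2.20 CPM) and try-5 (0, 1.79 and 2.28 CPM). The male markers pkd-2 (0, 0 and 0.236 CPM) and lov-1 (0 CPM in each library) were at or near 0, and the male regulator mab-3 was at 7.03, 5.94 and 2.67 CPM. The whole list of 16 male-enriched genes summed to 51.8, 39.1 and 30.6 CPM. Only 4 of them were compared, of which 1 was at least 4-fold higher and 2 lower in replicate 1. Over all genes these shares were 1.72% and 4.5%.

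Germline genes showed the same order as the oocyte genes with smaller steps. Their sums were 1972, 1477 and 885 CPM, with 24 of 27 highest in replicate 1 and 25 of 27 lowest in replicate 3, where 35.1% and 34.2% of all genes were. glh-1, a P granule helicase, was at 229, 247 and 155 CPM, the argonaute csr-1 at 184, 151 and 112 CPM, the argonaute wago-1 at 238, 140 and 65.7 CPM, and gld-1, a translational repressor of the germ line, at 208, 126 and 42.8 CPM. 1 of 27 passed the fold in replicate 1, him-8 (21.6, 5.15 and 3.70 CPM), which acts in pairing of the X chromosome. Genes of DNA replication summed to 2139, 1572 and 1166 CPM, with 21 of 29 highest in replicate 1 and 0 past the fold. rnr-1, a subunit of ribonucleotide reductase, was at 206, 157 and 109 CPM. In a separate list of cyclins and kinetochore genes, 20 of 25 were highest in replicate 1. There cyb-3 and cyb-1, mitotic cyclins, were at 147, 88.6 and 34.1 CPM and at 137, 79.1 and 39.2 CPM. In that list 1 of 25 was at least 4-fold higher in replicate 1, where 1.72% of all genes were: cyb-2.2 (71.2, 12.65 and 8.18 CPM).

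Histone genes had 8 of 53 members at least 4-fold higher in replicate 1 and 1 lower, where 1.72% and 4.5% of all genes were. his-25 (40.3, 6.90 and 8.74 CPM) and his-3 (23.8, 4.48 and 3.92 CPM) were the largest, and his-58 (7.22, 0 and 0 CPM) and his-57 (5.19, 0 and 0.176 CPM) were almost absent from the other libraries. The most abundant histone genes, his-72 (155, 150 and 178 CPM) and his-71 (113, 124 and 115 CPM), did not pass, nor did his-24 (166, 71.5 and 115 CPM) and his-35 (80.3, 101 and 120 CPM). Histone genes also differed between the other libraries. Replicate 2 was at least 4-fold above replicate 3 for 13 of 53, and replicate 3 above replicate 2 for 3. The shares of all genes were 6.28% and 3.56%. Replication-dependent histone messages lack the long poly(A) tail on which mRNA selection rests, and their gene copies share sequence, so these low levels are uncertain.

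**Figure D4:**
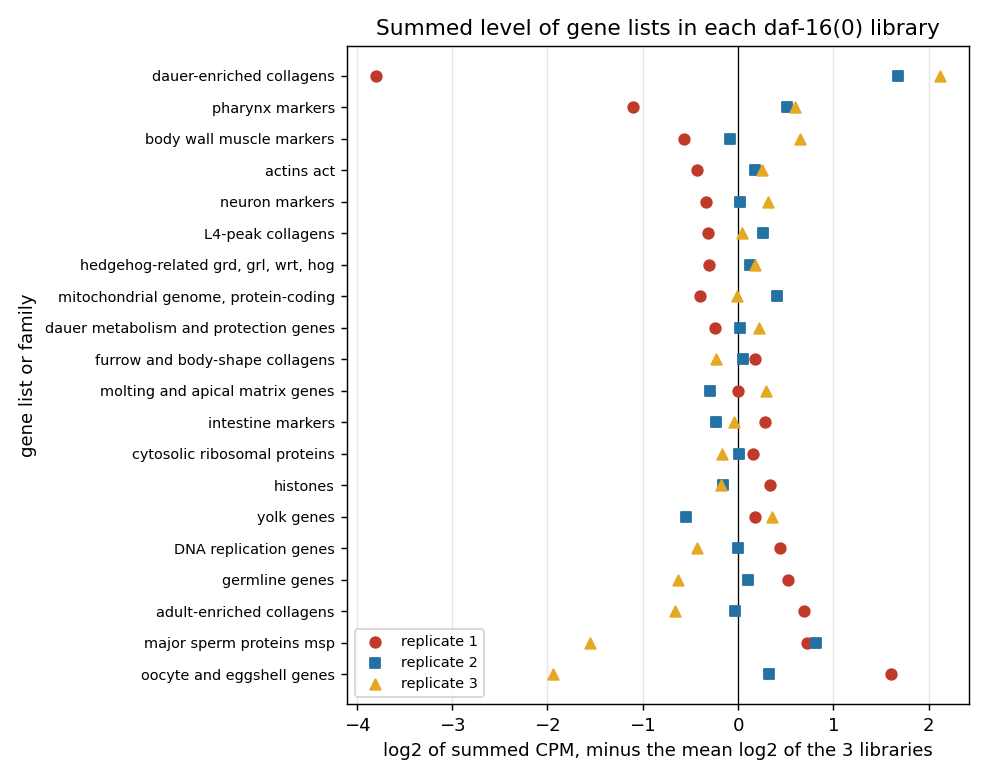
Summed CPM of 20 gene lists and families in each daf-16(0) library, as log2 minus the mean log2 of the 3 libraries. Replicate 1 (circles) stands at the left for dauer-enriched collagens (92.1 CPM against 4116 and 5596 CPM) and at the right for oocyte and eggshell genes, for which replicate 3 (triangles) is lowest at 281 CPM.

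Markers of muscle, pharynx and neurons were mostly lowest in replicate 1. Of 14 pharynx markers compared, 13 were lower there than in both others, against 36.8% of all genes, and 3 were past the fold, where 4.5% of all genes were: abu-8, abu-6 and phat-3. All 3 are among the 17 lower abu, pqn and phat genes given above, so this count is the same result again. The list summed to 312, 956 and 1015 CPM. The pharyngeal muscle myosins myo-2 and myo-1 were at 95.4, 315 and 382 CPM and at 102, 296 and 320 CPM, and tni-4, a pharyngeal troponin, at 39.8, 86.9 and 74.0 CPM. myo-5, another myosin heavy chain, was at 20.5, 59.5 and 78.4 CPM. The low value was that of replicate 1 in each case.

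Body wall muscle markers summed to 8710, 12196 and 20329 CPM, with 10 of 13 lowest in replicate 1 and 12 of 13 highest in replicate 3, where 35.3% of all genes were highest. Besides unc-54, they were led by unc-15 (1347, 2132 and 3199 CPM), which encodes paramyosin, the tropomyosin lev-11 (1204, 1693 and 1830 CPM) and the troponin C gene pat-10 (1184, 1567 and 1598 CPM). Among the 6 members with at most 2 kb of exon the sums were 2952, 4308 and 4603 CPM, so that the step from replicate 2 to 3 was much smaller than in the whole list. None was past the fold in replicate 1.

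Neuronal markers summed to 1271, 1630 and 2004 CPM, and 18 of 22 were lowest in replicate 1, where 36.8% of all genes were, with none past the fold. egl-21 and egl-3, which process neuropeptides, were at 253, 349 and 416 CPM and at 231, 294 and 389 CPM, and ida-1, of dense core vesicles, at 189, 225 and 289 CPM. sbt-1, a chaperone of the egl-3 protease, was at 113, 189 and 173 CPM. rab-3 (19.1, 16.8 and 31.2 CPM) and unc-119 (16.8, 15.7 and 15.96 CPM), which were fixed as defining markers, were not lowest in replicate 1. FMRFamide-like peptide genes summed to 560, 790 and 1019 CPM with 2 of 30 at least 4-fold lower in replicate 1, a share near the 4.5% of all genes: flp-11 (3.42, 17.0 and 24.9 CPM) and flp-32 (3.42, 16.02 and 15.2 CPM).

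Intestinal markers showed no single order. They summed to 19741, 13826 and 15770 CPM, with 4 of 14 highest and 4 of 14 lowest in replicate 1. asp-1 made up most of that sum. cpr-1, a cathepsin B protease, was at 2456, 1507 and 1165 CPM, act-5, the actin of the microvilli, at 1022, 1288 and 1727 CPM, and ifb-2, an intestinal intermediate filament, at 855, 752 and 1011 CPM. At least 4-fold lower in replicate 1 were 3 of 16 hypodermal and seam markers, where 4.5% of all genes were, and these were cut-1, grd-10 (16.4, 66.9 and 82.6 CPM) and ceh-16 (0.197, 2.24 and 1.57 CPM), a homeobox gene of seam cells. The hypodermal collagen dpy-7 was level at 144, 143 and 118.9 CPM. mlt-11 (800, 309 and 1167 CPM), a protease inhibitor of molting, wrt-10 (142, 149 and 115 CPM) and ajm-1 (203, 182 and 264 CPM), of epithelial junctions, were not past the fold.

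Genes of dauer metabolism and protection were mostly near each other in the 3 libraries. icl-1, the glyoxylate cycle enzyme that turns fat into sugar precursors, was at 1798, 2438 and 2848 CPM. sodh-1, an alcohol dehydrogenase, was at 874, 1337 and 1684 CPM, and the glyceraldehyde-3-phosphate dehydrogenases gpd-3 and gpd-2 at 838, 955 and 1049 CPM and at 760, 695 and 805 CPM. Of 23 members compared, 14 were lowest in replicate 1, where 36.8% of all genes were, and past the fold 1 was lower and 1 higher, shares near those of all genes (4.5% and 1.72%). The lower gene was mtl-1, a metallothionein and known DAF-16 target, at 1.45, 13.4 and 21.7 CPM and 9.30-fold lower in replicate 1, and the higher was dod-3 (48.7, 9.75 and 6.13 CPM). sod-3, a mitochondrial superoxide dismutase and DAF-16 target, was low throughout at 2.96, 6.27 and 4.95 CPM. daf-7 was at 4.01, 13.0 and 22.7 CPM.

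Among heat shock genes the constitutive members were nearly level and the small inducible ones varied. hsp-1, the constitutive HSP70, was at 3258, 2880 and 2465 CPM, the mitochondrial chaperones hsp-6 at 606, 739 and 586 CPM and hsp-60 at 390, 362 and 365 CPM. The small heat shock genes hsp-16.1 and hsp-16.11 are near-identical, and their sum was 238, 947 and 549 CPM. The copies hsp-16.48 and hsp-16.49 summed to 147, 567 and 301 CPM, although hsp-16.49 alone was at 73.7, 378 and 29.8 CPM. Both sums were lowest in replicate 1 and highest in replicate 2. Neither sum was 4-fold lower in replicate 1 than in the nearer of the others.

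Heterochronic genes time larval stages. Of 12 genes compared from the list drawn up for them, 0 were past the fold in replicate 1, where 6.21% of all genes were. For so short a list, 0 is near that share. lin-42 was at 246, 174 and 289 CPM, let-765 at 137, 105 and 179 CPM, lin-41 at 147, 85.6 and 187 CPM and sea-2 at 71.1, 36.4 and 176 CPM. Whether let-765 belongs in such a list was not checked here. 9 of the 12 were highest in replicate 3, where 35.3% of all genes were. lin-41, which holds back adult fates, was lowest in replicate 2. It has 4810 bases of exon, and genes of 4 to 8 kb had a median log2 difference of replicate 3 over replicate 2 of 0.60, as given below. The median exon length of the list was 3837, and for genes of 2 to 4 kb that difference was 0.15. In the list itself the median log2 of replicate 2 over replicate 3 was -0.88. The part of length in this order was not tested.

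Replicates 2 and 3 also differed from each other. Replicate 2 was at least 4-fold above replicate 3 for 881 genes (6.28%) and replicate 3 above replicate 2 for 499 genes (3.56%). With at least 100 CPM in either, there were 9 and 28 genes. fat-7, a stearoyl-CoA desaturase, had the widest step down to replicate 3, at 222, 151 and 6.53 CPM in replicates 1, 2 and 3. E01G4.6 (1129, 379 and 26.7 CPM), cyp-33A1, a cytochrome P450 (393, 558 and 40.4 CPM), hsp-16.49, cpg-1 and cpg-2 completed the 6 named in that direction. For all but hsp-16.49, replicate 1 was on the side of replicate 2.

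The 6 genes with the widest step the other way belonged to the ribosomal RNA repeat at the end of chromosome I. rrn-3.1, of the large ribosomal RNA (chrI:15064838-15068346), was at 4234, 317 and 10507 CPM, and rrn-1.2, of the small ribosomal RNA, at 412, 42.3 and 1523 CPM. The rrn-3.56 pseudogene was at 364, 19.8 and 1095 CPM. The noncoding genes F31C3.14 and F31C3.15 overlap rRNA genes on the other strand and F31C3.16 overlaps rrn-3.56, so reads of each pair cannot be told apart. Ribosomal RNA took 0.528%, 0.0599% and 1.24% of all counts in replicates 1, 2 and 3. The order of the libraries was the same for each of the 6.

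Of the 28 genes high in replicate 3, 7 belonged to this repeat and 18 had over 8 kb of exon. dig-1, a giant adhesion protein, was at 36.9, 50.8 and 439 CPM, and unc-22, the giant muscle protein twitchin, at 249, 244 and 1143 CPM. Both were chosen after their values were seen. irg-5, an infection response gene at 16.03, 71.6 and 459 CPM, was the only one outside the repeat with at most 4 kb of exon. All 9 genes high in replicate 2 had at most 4 kb of exon.

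The difference between libraries moved with exon length over all genes compared. Among 96 genes with over 8 kb of exon, the median log2 difference of replicate 3 over replicate 2 was 1.51, and it was 0.60 for 658 genes of 4 to 8 kb, 0.15 for 3076 genes of 2 to 4 kb and -0.10 for 6108 genes of 1 to 2 kb. Replicate 1 lay between the others in the longest genes, 0.55 above replicate 2 and 0.97 below replicate 3 on the log2 scale. vit genes and unc-54, at 4 to 8 kb, lie in the range where this shift is seen, and their order of libraries was not tested apart from it. Oocyte and eggshell genes of at most 2 kb summed to 2300, 985 and 197 CPM, and pharynx markers of at most 2 kb to 68.8, 259 and 194 CPM, so their low libraries were the same within short genes. Of the 631 genes lower in replicate 1 and the 241 higher, 0 had over 8 kb of exon. Only 96 of all 14036 genes compared were that long, and replicate 1 mostly lay between the others there, so this 0 says little.

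**Figure D5:**
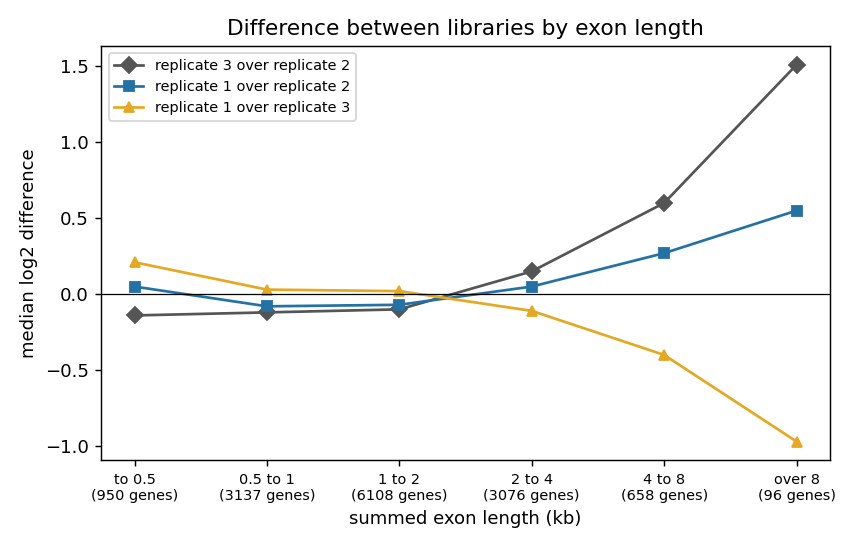
Median log2 difference between pairs of daf-16(0) libraries by summed exon length of the gene (kb), with the number of genes under each bin. Replicate 3 over replicate 2 runs from -0.14 in the shortest genes to 1.51 in those over 8 kb, and replicate 1 lies between them in the longest bin.

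Genes known by a sequence name alone made up 56.7% of the 631 lower and 61.8% of the 241 higher genes in replicate 1, against 45.9% of all genes compared. By chromosome, 9.09% of the genes compared on chromosome V were past the fold in replicate 1 in either direction, 207 lower and 51 higher, and 3.82% on chromosome I, the extremes among nuclear chromosomes, against 6.21% over all genes compared. Of the 13 mitochondrial genes compared, 0 were. Guanylate cyclases of the gcy family, many of which are receptors of sensory neurons, had 5 of 19 members at least 4-fold lower in replicate 1, where 4.5% of all genes were, led by gcy-35 at 0.788, 4.26 and 5.51 CPM. Replicate 3 was at least 4-fold above replicate 2 for 5 of 19 gcy genes, where 3.56% of all genes were. Ligand-gated channels of the lgc family had 6 of 29 lower in replicate 1, led by lgc-27 at 2.17, 46.7 and 24.5 CPM. Both prefixes were chosen after their values were seen, and the members counted, apart from lgc-27 and lgc-50, were under 10 CPM in every library.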

How the data were processed

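Whole daf-16(0) dauer larvae were sequenced as mRNA (TruSeq RNA v2, paired ends). Per the methods, trimming used Trimmomatic 0.39, alignment STAR 2.4.2a on the WBcel235 genome, and quantification RSEM, whose expected counts, without normalization, the authors deposited for 46904 features; the strand setting and gene annotation are not given in the sources used here. Between 1.28% and 1.41% of these expected counts per library were not whole, and they were used unrounded. Reads of near-identical copies are divided by RSEM, so single copies are uncertain. The table of normalized counts and the authors' comparison of genotypes (log2 fold changes and p-values) were not used.

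TMM factors were computed over the 3 libraries with edgeR 4.0.16 in R 4.3.3, and levels with pandas 2.3.3 in Python 3.11.15. Exon lengths are unions of exons in Ensembl release 115, found for 99.92% of the genes compared. Genes with a mean of at least 1 CPM were compared, with levels raised to a floor of 3 counts. Depth limits precision at low levels: 1 CPM is about 9 counts in the shallowest library.

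No test of a difference was run. Named are the 25 genes of highest mean; up to 12 per direction with the largest fold in replicate 1 and 6 per direction between replicates 2 and 3, each with at least 100 CPM in a library; the 4 highest members of a list described; and daf-16, daf-7, col-19, lin-41, mtl-1 and sod-3. Members of lists past the fold or defining a cell type, and those said to be so, were named after their values were seen. In the gene lists, 5 symbols were not found in the table. The 21 gene lists, 50 families and the rule were chosen with earlier results of these data known. Alternatives were other scalings, filters, folds and floors, protein-coding genes alone, and leaving out replicates.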

Additional observations from a re-analysis of the deposited data

How the results depend on the processing

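No paired analysis was possible because a single genotype was described and no test was run. The counts of genes 4-fold lower (631) and higher (241) in replicate 1 moved little with no TMM factor (628 and 248), RLE size factors (627 and 247) or protein-coding genes alone (602 and 225). With a mean of at least 10 CPM they were 130 and 32, with a floor of 10 counts 351 and 140, at 2-fold 1437 and 921 and at 8-fold 304 and 91. With no filter on low values 684 genes were lower and 453 higher. Most of the genes counted are therefore of low level. Without replicate 2 they were 981 and 1087, and without replicate 3 they were 925 and 613. Between replicates 2 and 3, counts fell from 881 and 499 to 164 and 62 with a mean of at least 10 CPM and were 1976 and 1684 at 2-fold. Of the 25 most abundant genes, 13 stayed when ranked by counts per kb, 23 by the median or geometric mean and 22 to 24 without 1 replicate. The log2 of the summed level in replicate 1 over the other libraries ranged, on leaving out replicate 2 or 3, from -5.93 to -5.48 for dauer-enriched collagens, from 0.73 to 1.36 for adult-enriched collagens, from 1.28 to 3.55 for oocyte and eggshell genes, from -1.70 to -1.62 for pharynx markers, from -1.22 to -0.49 for body wall muscle markers and from 0.14 to 0.33 for ribosomal proteins. All 18 values, with those for no TMM factor, kept their sign. On leaving out replicate 2 or 3 the sign could not change, since replicate 1 lay outside both others in each of these lists. Leaving out 1 of 3 libraries cannot move a mean by a full SD, so summed levels could be judged only for the scaling. With no TMM factor, no summed level moved by an SD.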

Other observations

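Defence and detoxification families, and nuclear hormone receptors, went both ways in replicate 1, where 1.72% of all genes were at least 4-fold higher and 4.5% lower. C-type lectins had 8 members higher and 8 lower among 116 compared: clec-70 was at 36.0, 1.12 and 1.18 CPM in replicates 1, 2 and 3, and clec-57 at 1.58, 23.2 and 17.0 CPM. Nuclear hormone receptors had 3 higher and 11 lower among 186, shares near those of all genes, and glutathione S-transferases 2 higher and 3 lower among 34. Of 58 cytochrome P450 genes, 8 were at least 4-fold higher in replicate 2 than in replicate 3 and 0 the other way, where 6.28% and 3.56% of all genes were. These families and genes were chosen after their values were seen.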
